A study of Mus musculus with 5 samples.

Results

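ID SINEs and BC1 RNA were followed through 5 libraries of medium-length mouse RNA. They were taken by name from the count tables: the names ID, ID2, ID4 and ID4_ for the ID family of short interspersed elements (SINEs), and BC1_Mm for BC1 RNA, which makes 5 of the 1038 names listed in all. The composite name ID_B1 was left out and is given only for comparison. ID sum below means the reads of the 4 ID names together, without BC1_Mm.

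The method, melRNA-seq, ligates adaptors to whole RNAs of a size range that the labels give as 115 to 255 nt, so that a read covers an RNA from its 5′ to its 3′ end. All RNA came from C57BL/6J mice. Whole testis, which the study lists under postnatal day 7, gave 3 libraries from 600 ng of RNA each: 1 untreated, 1 after 25 U of TAP for 1.5 h, and 1 after 20 U of 5′ polyphosphatase (5Pase) for 30 min. Spermatogonia sorted from testes at postnatal day 7 gave 2 replicate libraries after RppH, for which the methods state 500 ng of RNA and 25 U for 1 h, with a size selection on a gel whose range they do not state. The adaptor joins only to a 5′ monophosphate. TAP and RppH turn both caps and triphosphates into monophosphates, whereas 5Pase acts on triphosphates and leaves caps, so the untreated library reads only RNAs that already carry a monophosphate. Whole testis holds germ cells and somatic cells, and in such bulk RNA fewer cells of a type and less RNA per cell cannot be told apart. The tables list repeats and small RNAs and no mRNA, so the marker genes of spermatogonia and of somatic cells could not be examined.

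SINEs are retrotransposons that use the enzymes of other elements to copy themselves, and they are transcribed by RNA polymerase III (Pol III) from a promoter inside the element, made of an A box and a B box. BC1 RNA is a rodent Pol III transcript that derives from alanine tRNA and is best known from neurons, where it acts on translation in dendrites. ID elements are copies related to BC1 RNA, with a tRNA-like body followed by an A-rich tail. A primary Pol III transcript carries a 5′ triphosphate.

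The BC1 gene is shown because it holds the ID sequence that the family shares and the unique 3′ end that sets BC1 RNA apart from it. In GENCODE M21 on GRCm38 it lies at chr7:144914470-144914637 on the plus strand, as a single transcript of 168 bases, and the RefSeq entry for the gene ends earlier, at 144914623. In both sequences below, capitals mark the A-box letters GCTCAGTGG and the B-box letters GGTTCG where they are present. The second sequence is the stretch of Bc1-ps1, at chr7:93660238-93660555 on the minus strand, that aligns to the ID part of Bc1, and it shows how an annotated relative differs within the ID part.
Bc1: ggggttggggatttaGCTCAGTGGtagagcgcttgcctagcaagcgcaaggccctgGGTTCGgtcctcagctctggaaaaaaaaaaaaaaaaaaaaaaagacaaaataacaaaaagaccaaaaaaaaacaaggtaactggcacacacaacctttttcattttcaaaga
Bc1-ps1: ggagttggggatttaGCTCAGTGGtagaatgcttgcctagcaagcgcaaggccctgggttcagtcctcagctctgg

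The ID part of Bc1 took up its first 76 bases, with 14.5% A. It was followed by an A-rich part of 52 bases with 86.5% A and by a 3′ part of 40 bases. The first 20 bases of that 3′ part occurred in 1 GENCODE transcript, Bc1 itself. The A-box letters stood at positions 16 to 24 and the B-box letters at positions 57 to 62, counted from 1 at the 5′ end of Bc1. Over the 76 aligned bases, Bc1-ps1 matched Bc1 at 72, or 94.7%, without gaps. The 4 substitutions, with the base of Bc1 first, were G3A, G29A, C30T and G62A, and G62A lay in the B-box letters. The same letters were searched on both strands of the 300-base promoter windows of 32851 RefSeq genes: the A-box letters occurred in 0.801% of the windows, the B-box letters in 4.72% and both in 0.0183%. Words of 20 bases from the ID part of Bc1 were found in sense in 27 of 141767 GENCODE transcripts and in antisense in 33. Among the 10765 transcripts of up to 300 bases there was 1 in sense and 0 in antisense. Bc1-ps1 shares most letters of the ID part, but no consensus sequences of the ID names were examined. The ID part, at 76 bases, is shorter than the 115 to 255 nt that the labels give. Whether reads of BC1 RNA were named as ID, or the reverse, by the assignment to repeat names was not tested.

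The libraries differed in depth and in the share taken by 5.8S rRNA, the RNA used here as the standard because it carries a 5′ monophosphate and needs no enzyme. Reads listed with a name ranged from 1067851 to 1160933 in testis and from 1993087 to 3166394 in spermatogonia. The 5.8S rRNA made up 27.2% of them in the untreated library, 50.2% after TAP, 19.2% after 5Pase, and 39.1% and 25.9% in spermatogonia replicates 1 and 2. Levels are therefore given as reads per 1000000 5.8S rRNA reads (RPM) and beside them as reads per 1000000 listed reads. Every interval is an exact 95% interval from the read counts and covers counting error only, since the reads carry no molecular identifiers. For ratios, a name with 0 reads was set to a floor of 3 reads. That is 9.49 RPM in the untreated library, 5.60 RPM after TAP, 14.4 RPM after 5Pase, and 2.43 and 5.82 RPM in the spermatogonia replicates. The exact upper limits for 0 reads were 11.7 RPM in the untreated library and 2.98 and 7.15 RPM in the spermatogonia replicates. Each testis treatment had 1 library, so the differences between libraries below have no replicate check and no test.

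ID RNA was scarce in testis and higher in spermatogonia, where it still made up only 0.0720% and 0.101% of the listed reads. The ID sum was 3 reads in the untreated testis library, 34 after TAP and 14 after 5Pase, against 2279 and 2012 in the spermatogonia replicates. In RPM the ID sum was 9.49 (1.96 to 27.7) untreated, 63.4 (43.9 to 88.6) after TAP and 67.3 (36.8 to 112.9) after 5Pase. In spermatogonia it was 1842 (1768 to 1920) and 3902 (3734 to 4077) RPM, with a mean of 2872 ± 1456 (SD, n = 2). All spermatogonia values lay above all testis values. Per 1000000 listed reads the ID sum was 2.58, 31.8 and 12.9 in the untreated, TAP and 5Pase libraries, and 720 and 1009 in the spermatogonia replicates, a mean of 865 ± 205 (SD, n = 2). The replicates differed by 2.12-fold (1.99 to 2.25) per 5.8S rRNA read and by 1.40-fold (1.32 to 1.49) per listed read, which is more than counting error. Replicate 2 was the higher one on both scales, and the gap was 1.07-fold (1.005 to 1.13) per listed read other than rRNA and 1.09-fold (1.03 to 1.16) per sequenced read.

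**Figure D1:**
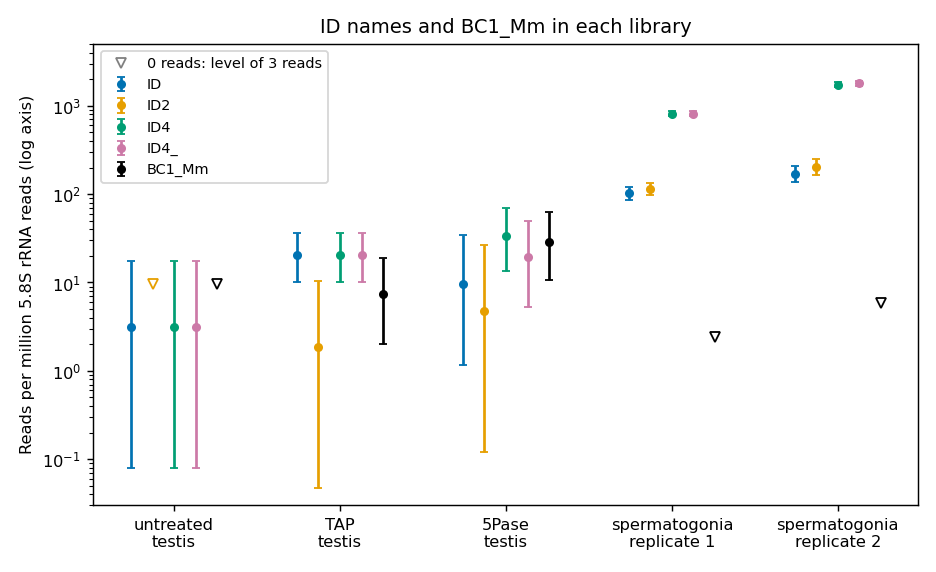
Levels of the 4 ID names and BC1_Mm in each of the 5 libraries, in reads per 1000000 5.8S rRNA reads on a log axis, with exact 95% Poisson intervals. Open triangles mark a name with 0 reads, drawn at the level of 3 reads. ID4 and ID4_ reach 814 and 812 RPM in spermatogonia replicate 1, while no ID name exceeds 33.7 RPM in testis.

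ID4 had 1 read untreated, 11 after TAP, 7 after 5Pase, and 1007 and 891 in spermatogonia. In RPM these were 3.16, 20.5, 33.7, 814 and 1728. ID4_, listed as a separate name that differs from ID4 only by its last character, had 1, 11, 4, 1004 and 928 reads, or 3.16, 20.5, 19.2, 812 and 1800 RPM. ID4 and ID4_ were level with each other in both spermatogonia replicates, at 1271 ± 646 and 1306 ± 699 RPM (SD, n = 2), and which of them was higher changed between the replicates. Reads of such close relatives can be split between names by the assignment, so the sum is firmer than either name.

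The name ID, without a number, had 1 read untreated, 11 after TAP, 2 after 5Pase, and 126 and 88 in spermatogonia, or 3.16, 20.5, 9.62, 102 and 171 RPM. ID2 had 0, 1, 1, 142 and 105 reads, or 0, 1.87, 4.81, 115 and 204 RPM. ID2 was above ID in both spermatogonia replicates, but the count intervals overlapped in each, 96.7 to 135 against 84.9 to 121 RPM in replicate 1. Their means were 159 ± 62.8 and 136 ± 48.7 RPM (SD, n = 2). Replicate 2 was above replicate 1 by 1.77-fold for ID2 and 1.68-fold for ID. The SDs hold this shared shift, so they do not measure the gap between the names. Both lay several-fold under ID4 and ID4_ in spermatogonia, whereas in the TAP library ID had the same 11 reads as ID4 and ID4_.

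BC1_Mm was listed only after enzyme treatment of testis RNA. It had 0 reads untreated, 4 after TAP and 6 after 5Pase, and the name was not listed in either spermatogonia table. Its level was 7.46 RPM (2.03 to 19.1) after TAP and 28.8 RPM (10.6 to 62.8) after 5Pase, a ratio of 3.87 (0.917 to 18.6) that includes 1. Per 1000000 listed reads the 2 levels were 3.75 and 5.55. Against the floor of 3 reads in the untreated library, the level after 5Pase was 3.04-fold higher per 5.8S rRNA read. The exact lower limit of that ratio was 1.79, and 4 reads after TAP give no lower limit above 1 on this scale. In spermatogonia, 0 reads set to the floor of 3 correspond to 2.43 and 5.82 RPM. That is 0.0841 and 0.202 times the 5Pase level of testis, and 0.325 and 0.780 times the TAP level. The exact upper limits of these ratios were 0.143 and 0.343 against 5Pase. Against the 4 reads after TAP they were 0.656 and 1.57, so no difference from the TAP library was detectable in replicate 2. The spermatogonia tables were listed under partly different names: of 352 repeat names in the testis tables, 270 also stood in the spermatogonia tables, and BC1_Mm was among the 82 that did not. Absence of the RNA and absence of the name from the list cannot be told apart.

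The 2 enzymes address how much of the ID RNA has a 5′ end that needs opening before ligation. The ID sum was 6.68-fold higher after TAP than untreated (2.10 to 34.0) and 7.09-fold higher after 5Pase (1.98 to 38.5), per 5.8S rRNA read. Per listed read the ratios were 12.3 (3.87 to 62.7) and 5.01 (1.40 to 27.2). All 4 intervals lay above 1, but the untreated library held only 3 ID reads, which sets their width. Set against the B1 or B2 reads of the same library, the 5Pase to untreated ratio of the ID sum was 0.832 and 0.662. The intervals of ID reads per B1 read, and per B2 read, overlapped between the untreated and 5Pase libraries. ID, ID4 and ID4_ each gave a TAP to untreated ratio of 6.49 with an interval from 0.943 to 279, because each compared 11 reads with 1. For 5Pase to untreated, ID gave 3.04 (0.158 to 179), ID4 10.6 (1.37 to 479) and ID4_ 6.08 (0.602 to 299). Of these single-name intervals per 5.8S rRNA read, only that of ID4 after 5Pase lay above 1. Over all names with at least 20 reads in the libraries compared, 26.0% were at least 2-fold higher after TAP and 37.2% after 5Pase on that scale, and 33.9% and 25.3% per listed read. The interval per 5.8S rRNA read lay above 1 for 28.3% of these names after TAP and for 67.6% after 5Pase. No ID name or BC1_Mm had enough reads to be among the names compared. The median ratio of the 21 SINE names compared was 3.14 after TAP and 7.60 after 5Pase.

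Whether ID RNA was read more often after 5Pase or after TAP depended on the denominator. Per 5.8S rRNA read the 5Pase to TAP ratio of the ID sum was 1.06 (0.526 to 2.03). Per listed read it was 0.407 (0.202 to 0.778), and per listed read other than rRNA it was 0.244 (0.121 to 0.467). The share of 5.8S rRNA among listed reads moved from 50.2% after TAP to 19.2% after 5Pase, and its part in this difference was not tested. On the 5.8S rRNA scale 73.6% of all names were at least 2-fold higher after 5Pase than after TAP, with a median of 3.48, and 78.8% had an interval above 1. Per listed read 37.4% were at least 2-fold higher.

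On the 5.8S rRNA scale, other SINEs gave 5Pase to TAP ratios above that of the ID sum or within its interval. B1, the 7SL-derived SINE family, gave 4.49 (4.08 to 4.94), and B2, a tRNA-derived family, gave 3.35 (3.07 to 3.65), both above the upper limit of the ID sum. ID_B1, a composite SINE with an ID part, gave 1.21 (0.756 to 1.89), the B4 sum, of B4 and B4A, gave 1.33 (1.07 to 1.66) and RSINE1 gave 1.62 (1.23 to 2.13), all within the interval of the ID sum. B3, a relative of B2, gave 2.05 (1.78 to 2.37), and the alanine tRNA names together gave 3.70 (3.24 to 4.23).

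**Figure D2:**
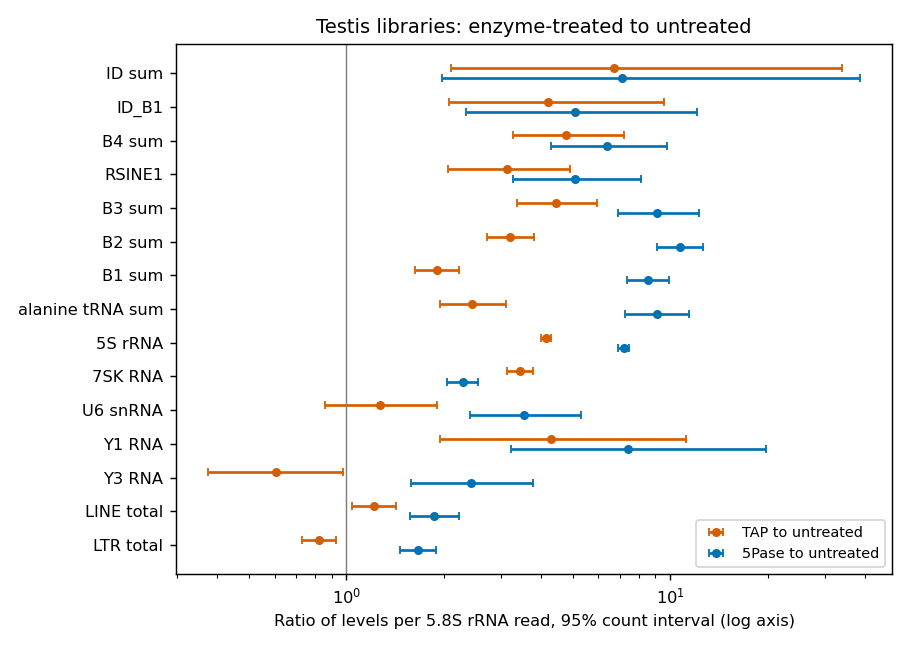
Ratio of the level after TAP and after 5Pase to the untreated library for the ID sum and other RNAs of testis, per 5.8S rRNA read, with 95% count intervals on a log axis. The vertical line marks 1. The ID sum lies at 6.68 and 7.09 with the widest intervals, and B1 lies at 1.90 after TAP and 8.52 after 5Pase.

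The comparison of spermatogonia with testis sets the level of ID RNA in sorted germ cells beside that in whole testis. It does not give the part of the ID RNA of testis that lies in germ cells. The ID sum was 29.0-fold (20.7 to 42.0) and 61.5-fold (43.9 to 89.1) higher in spermatogonia replicates 1 and 2 than in testis after TAP, a mean of 45.3 ± 23.0 (SD, n = 2) per 5.8S rRNA read. Against testis after 5Pase it was 27.4-fold (16.3 to 50.1) and 58.0-fold (34.5 to 106.2) higher, a mean of 42.7 ± 21.6. Per listed read the means were 27.2 ± 6.43 against TAP and 66.8 ± 15.8 against 5Pase. Tissue, enzyme, library kit and the amount of RNA all differed between the spermatogonia and testis libraries, and the repeat names listed differed in part. The methods do not state the size range for spermatogonia. The parts of all of these cannot be told apart. Set against the B2 reads of the same library, the ID sum was lower in spermatogonia than in testis after TAP, at a mean of 0.524 times, and higher than after 5Pase, at 1.65 times.

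Against testis after TAP, the ratio of the name ID was lower than that of ID4. ID4 was 39.7-fold (22.1 to 79.7) and 84.2-fold (46.8 to 169) higher in the replicates, and ID4_ was 39.6-fold and 87.7-fold higher. ID was 4.96-fold (2.68 to 10.2) and 8.32-fold (4.43 to 17.3) higher, and its interval did not overlap that of ID4 in the same replicate. Against testis after 5Pase the intervals of the same names overlapped: ID gave 10.6 (2.87 to 88.4) and 17.7 (4.77 to 149), and ID4 gave 24.2 (11.7 to 60.3) and 51.3 (24.8 to 128). ID2 was 61.5-fold (10.9 to 2447) and 109-fold higher than after TAP, and both values rest on 1 read in the TAP library. The mean ratios to 5Pase were 14.2 ± 5.06 for ID, 33.1 ± 13.1 for ID2, 37.8 ± 19.2 for ID4 and 67.9 ± 36.3 for ID4_ (SD, n = 2), on 1 to 7 reads in the 5Pase library.

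As background, 52.7% of the 385 names with at least 20 reads in spermatogonia and TAP libraries together were at least 2-fold higher in both replicates than after TAP, and 51.2% had an interval above 1 in both. Against 5Pase the shares were 33.8% and 28.1% of 388 names. Per listed read 43.4% were at least 2-fold higher than after TAP and 43.8% than after 5Pase. The 4 ID names had 1 to 11 reads in each of these testis libraries and reached 20 reads only through spermatogonia, so they had to be higher there, and their own number is not read against these shares. The 33 SINE names compared had a median ratio of 12.7 against TAP, and the 30 compared with 5Pase one of 6.90.

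The composites with an ID part moved less than the ID sum against TAP: ID_B1 gave a mean of 12.0 ± 5.09, the B4 sum 2.79 ± 1.19 and RSINE1 4.31 ± 1.43. The B2 sum gave 84.5 ± 34.1, the B1 sum 32.2 ± 17.4 and the B3 sum 13.9 ± 4.87, so the ID sum lay between B1 and B2, and its count interval overlapped that of B1 in each replicate. Against testis after 5Pase the order was another: the B1 sum gave a mean of 7.17 ± 3.88 and the B2 sum 25.2 ± 10.2 (SD, n = 2), and in both replicates the ID sum was above them, with an interval that overlapped that of B2 in replicate 1 and not in replicate 2. Retrotransposons with long transcripts gave 5.40 for the LINE total and 3.07 for the LTR total against TAP, and 3.52 and 1.52 against 5Pase.

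**Figure D3:**
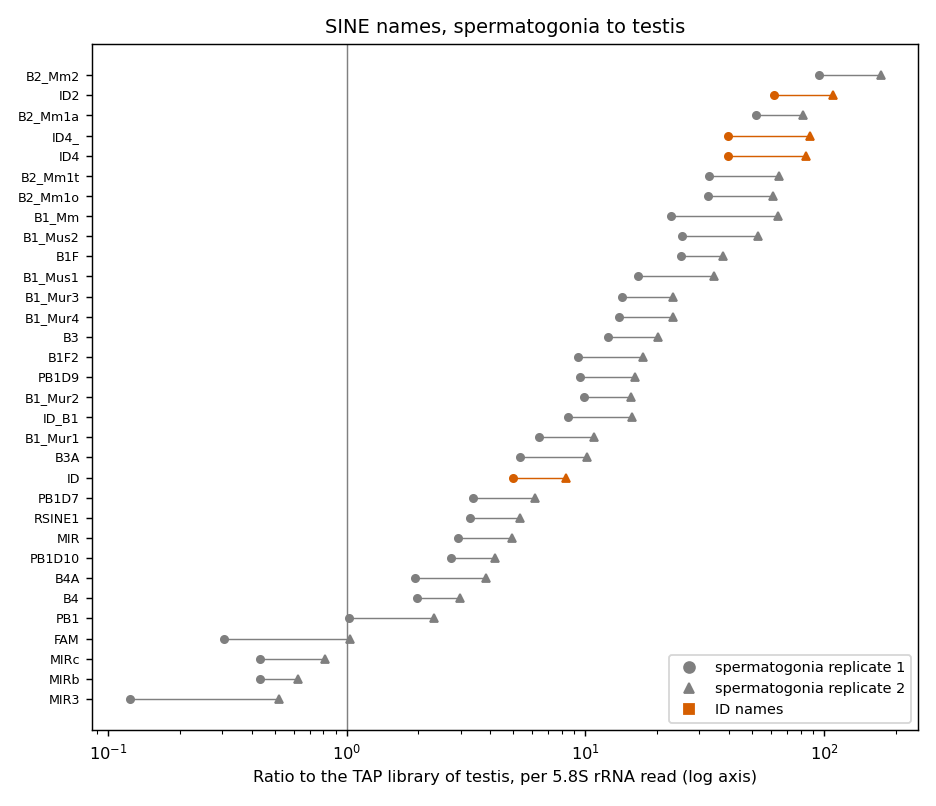
Ratio of each spermatogonia replicate to the TAP library of testis for 32 SINE names, per 5.8S rRNA read on a log axis; circles are replicate 1 and triangles replicate 2, and the ID names are coloured. B1F1, listed at 0 in the TAP library, is left out. ID4 lies at 39.7 and 84.2 and ID at 4.96 and 8.32; the values of ID2 rest on 1 read in the TAP library.

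ID4 and ID4_ made up most of the ID reads in both spermatogonia replicates. ID4 made up 44.2% (42.1 to 46.3) and 44.3% (42.1 to 46.5) of the ID reads, and ID4_ 44.1% (42.0 to 46.1) and 46.1% (43.9 to 48.3). ID2 made up 6.23% and 5.22%, and ID 5.53% and 4.37%. Together ID4 and ID4_ held 89.3% ± 1.53 (SD, n = 2) of the ID reads. A chi-square test with 100000 permutations of the reads gave 5.78 with 3 degrees of freedom and p = 0.123 for the difference in composition between the replicates. It treats each read as an independent molecule, so it covers counting error only, and it does not show that the compositions were the same. In testis after TAP, ID made up 32.4% (17.4 to 50.5) of 34 reads, ID4 and ID4_ together 64.7% (46.5 to 80.3). After 5Pase, ID4 and ID4_ together made up 78.6% (49.2 to 95.3) of 14 reads. The interval of ID4 and ID4_ together after TAP lay below those of both spermatogonia replicates, 86.8 to 89.5 and 89.0 to 91.7, whereas that after 5Pase included them. Repeat names listed differed in part between testis and spermatogonia, and the effect of this on the shares was not tested.

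**Figure D4:**
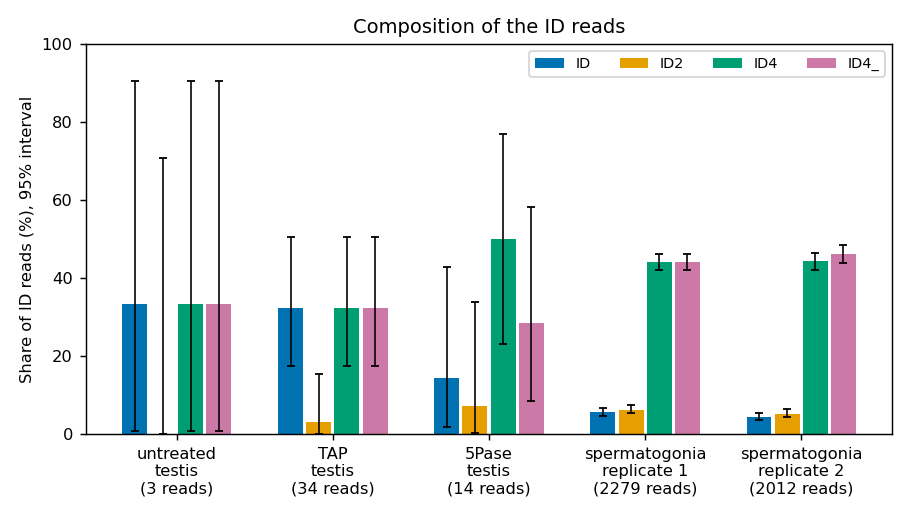
Share of each ID name among the ID reads of a library, in percent, with exact 95% binomial intervals; the number of ID reads stands under each library. ID4 and ID4_ hold 44.1% to 46.1% each in spermatogonia, and the 34 and 14 reads of the TAP and 5Pase libraries leave wide intervals.

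Ratios of ID reads to other reads of the same library need no standard. Per 100 ID_B1 reads there were 33.3 ID reads in the untreated library, 53.1 after TAP and 46.7 after 5Pase, and 183 and 209 in the spermatogonia replicates. ID reads were outnumbered by ID_B1 reads in each testis library and outnumbered them in both spermatogonia libraries. In the untreated library this was 3 against 9 reads, and the interval of the ratio, 0.0580 to 1.34, included equal numbers. Per 100 reads of the B4 sum there were 9.68, 13.5 and 10.8 ID reads in testis, and 202 and 229 in spermatogonia. Per 100 RSINE1 reads the values were 11.1, 23.8 and 15.6 in testis against 209 and 275. B2 behaved otherwise: per 100 B2 reads there were 1.76, 3.69 and 1.17 ID reads in testis, and 1.77 and 2.09 in spermatogonia, which lie inside the range of the testis libraries. Per 100 B1 reads there were 1.44, 5.05 and 1.19 ID reads in testis, and 7.40 and 6.98 in spermatogonia.

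**Figure D5:**
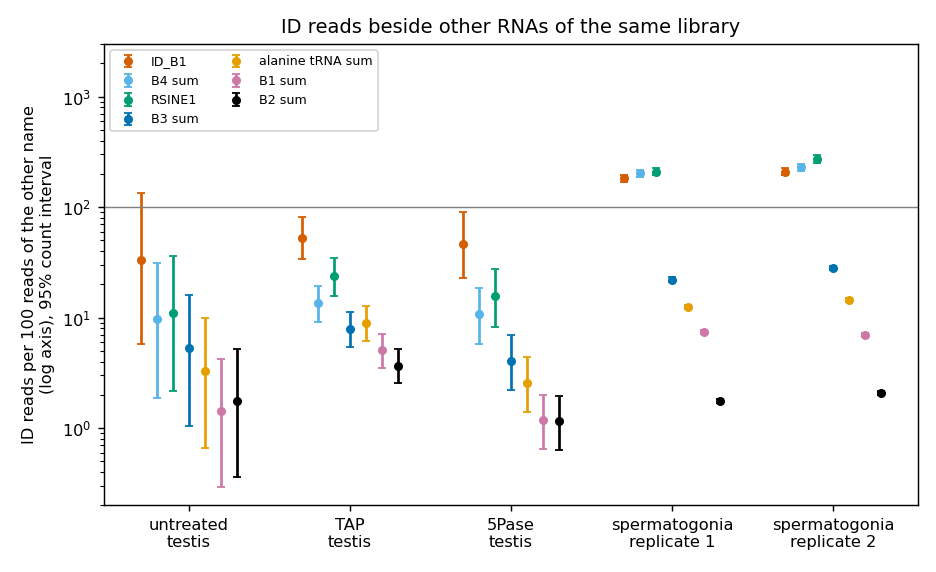
ID reads per 100 reads of another name in the same library, on a log axis, with 95% count intervals, for the 5 libraries. The grey line marks equal numbers of reads. The values for ID_B1, the B4 sum and RSINE1 lie under the line in all testis libraries and above it in both spermatogonia libraries. The interval for ID_B1 in the untreated library crosses the line.

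Alanine tRNA is the tRNA from which BC1 RNA and the ID body derive, and 29 of its names were listed. The size range of 115 to 255 nt applies to reads under these names too. The counts give neither position nor length, so whether such reads are mature tRNA, precursors or other RNAs was not examined. Their reads together numbered 91 untreated, 378 after TAP, 543 after 5Pase, and 18223 and 13888 in spermatogonia. Per 100 alanine tRNA reads there were 3.30, 8.99 and 2.58 ID reads in testis and 12.5 and 14.5 in spermatogonia. Of the alanine tRNA names with enough reads, 4 of 6 were at least 2-fold higher after TAP than untreated, with a median ratio of 2.72, and 7 of 7 after 5Pase, with a median of 10.3, beside 26.0% and 37.2% of all names. In spermatogonia 16 of 20 were at least 2-fold higher than in testis after TAP in both replicates, with a median of 21.6, and 12 of 25 than in testis after 5Pase, beside 52.7% and 33.8% of all names. Names with under 20 testis reads pass the filter only through spermatogonia, which favours higher ratios. An example is tRNA_chr13.trna71-AlaAGC, with 14 reads after TAP and 14 after 5Pase. These counts are therefore not read as a result about alanine tRNA. The alanine tRNA sum was 29.5 ± 12.2 times that in testis after TAP (SD, n = 2). The list of 9 other Pol III transcripts held the B1, B2, B3 and B4 sums and 5S rRNA, the ribosomal RNA that Pol III makes, 7SK, an inhibitor of transcription elongation, U6, the spliceosomal snRNA, and the Y1 and Y3 RNAs. Of these, 6 were at least 2-fold higher after TAP and 9 after 5Pase per 5.8S rRNA read, beside the same 26.0% and 37.2%. Those under 2-fold after TAP were the B1 sum at 1.90, U6 at 1.27 and Y3 at 0.606. Per listed read 8 were at least 2-fold higher after TAP and 7 after 5Pase, beside 33.9% and 25.3% of all names. In spermatogonia 5 of 8 were at least 2-fold higher than in testis after TAP in both replicates, which is near the 52.7% of all names, and 7SK was not listed there. U6 snRNA gave a mean ratio of 97.7 ± 57.6 and 5S rRNA 1.01 ± 0.885 (SD, n = 2).

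The names whose levels followed the ID sum most closely over the 5 libraries were measured by the distance of log2 levels per 5.8S rRNA read, each centred on its own mean. Among 250 names compared, the nearest was tRNA_chr13.trna71-AlaAGC, an alanine tRNA gene, with 3, 14 and 14 reads in testis and 1231 and 958 in spermatogonia, at a distance of 1.20. It was followed by the B2 subfamilies B2_Mm1t and B2_Mm1a, both at 1.26, by tRNA_chrX.trna363-AlaTGC at 1.27 and by tRNA_chr4.trna1183-ValAAC at 1.43. The 5 nearest names were thus names of alanine tRNA genes, of B2 subfamilies and of a valine tRNA gene. Alanine tRNA names were 29 of the 1038 names listed in all. Their share among the 250 compared was not counted, so no enrichment is read from the 5 names. The testis side of the ID sum rests on 3, 34 and 14 reads, which limits these distances. Names of tRNA genes with near-identical sequences can share reads, so the order among them is uncertain.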

How the data were processed

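The authors deposited raw counts, the reads assigned to each repeat or small RNA, which they had not normalized. Their single-end MiSeq reads were trimmed with Cutadapt, kept where the adaptor was found, and named by RepeatMasker. Versions are not given in the sources used here, and the counts carry no positions. A line without a count was skipped for the untreated and 5Pase libraries, 1 in each. For spermatogonia the labels repeat the testis protocol, and the methods were followed.

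From these counts, levels per 5.8S rRNA read and per listed read were computed with Python 3.11.15, numpy 2.4.6 and scipy 1.17.1, with Poisson intervals for levels, conditional binomial intervals for ratios and Clopper-Pearson intervals for shares. A group at 0 was set to 3 reads for ratios, and the exact limits use the count of 0 itself. Background shares used names with at least 20 reads in the libraries compared. The intervals were tested on simulated counts with Poisson error only. These hold no spread between replicates, so the simulation does not show that the intervals cover it. Treatments and tissues were compared without a test, since each testis treatment has 1 library. The study calls the spermatogonia libraries biological replicates, and the labels do not say from which animals they came.

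The names described were every member, ID_B1, B4, B4A, RSINE1, the alanine tRNA names, 5S, 7SK, U6, Y1 and Y3 RNA, the B1, B2, B3 and B4 sums, the LINE and LTR totals and the 5 names nearest to the ID sum. Members and lists were chosen with earlier results of these data known. The ratios of ID reads to reads of other names of the same library were added after the counts were seen. Alternatives changed the denominator, the members of the ID sum, the least number of reads, the reads added before the log and the replicates. Sequences were read from GENCODE M21 and RefSeq.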

Additional observations from a re-analysis of the deposited data

How the results depend on the processing

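No paired analysis was possible because each testis treatment has 1 library and only the spermatogonia libraries carry replicate numbers. The ID sum stayed higher in spermatogonia than in testis after TAP under every alternative tried but 1: with B2 reads of the same library as the denominator, chosen after seeing the data, that ratio was 0.524. Under it TAP to untreated was 2.09, 5Pase to untreated 0.662, 5Pase to TAP 0.317 and spermatogonia to 5Pase 1.65. The ratio of 5Pase to untreated fell to 0.832 when B1 reads of the same library were the denominator, also chosen after seeing the data. The 5Pase to untreated values below 1 rest on 3 untreated ID reads and do not show a reversal. ID reads per B1 read were 0.0144 (0.00294 to 0.0425) untreated and 0.0119 (0.00651 to 0.0201) after 5Pase. Per B2 read they were 0.0176 (0.00360 to 0.0525) and 0.0117 (0.00637 to 0.0197). The cause of the values below 1 was not tested. With B1 reads the ratio of 5Pase to TAP was 0.236, and of spermatogonia to testis 1.42 for TAP and 6.02 for 5Pase. With ID_B1 reads as the denominator, also chosen after seeing the data, TAP to untreated was 1.59, 5Pase to untreated 1.40, and spermatogonia to testis 3.69 for TAP and 4.20 for 5Pase.

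The ratio of 5Pase to TAP was 0.407 per listed read, 0.244 per listed read other than rRNA and 0.502 per sequenced read. The mean ratio of spermatogonia to 5Pase was 66.8, 136 and 71.8 on the same scales, and 20.4 with ID_B1 in the sum. Without each replicate it ranged from 27.4 to 58.0, and that to TAP from 29.0 to 61.5. Without replicate 1 or 2 the share of each ID name ranged from 4.37% to 5.53% for ID, 5.22% to 6.23% for ID2, 44.2% to 44.3% for ID4 and 44.1% to 46.1% for ID4_. With ID_B1 and BC1_Mm counted, the shares were 3.27%, 3.78%, 29.3% and 29.8%. The share of names at least 2-fold higher after 5Pase than after TAP was 37.4% per listed read.

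Levels per 1000000 reads changed with the denominator. The untreated library was at 0.952 per sequenced read and 38.0 with ID_B1 in the sum. The TAP library was at 31.8 per listed read, 10.3 per sequenced read, 183 with ID_B1 and 42.9 without ID4_. The 5Pase library was at 12.9 per listed read, 16.3 per listed read other than rRNA, 5.16 per sequenced read and 212 with ID_B1. Spermatogonia replicate 1 was at 720, 2141 and 355 on these 3 scales, 2849 with ID_B1 and 1031 without ID4_, and replicate 2 at 1009, 2285 and 386, 5768 with ID_B1 and 2102 without ID4_. With 3 ID reads in the untreated library and 1 read behind single names, depth limits every ratio to it.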
